A study of Mus musculus with 24 samples.

Results

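The heat shock chaperones described here are 10 protein-folding genes: Hspa1a, Hspa1b, Hspb1, Hsph1, Dnajb1, Hsp90aa1, Hspa8, Hspd1, Hspe1 and Bag3. They were chosen by name, and each was found as 1 Ensembl entry among the 37621 gene entries of every count table. They were followed in total RNA of 4 dissected brain regions (cerebellum, cortex, hippocampus, olfactory bulb) of C57BL/6 mice, in Cdr1as knockout (KO) animals and in wild type (WT) animals. Each region and genotype had 3 libraries numbered 1 to 3, which gives 24 libraries made after removal of ribosomal RNA. Cdr1as is a circular RNA of neurons that binds microRNA miR-7, and the comparison of KO with WT asks what its loss does to RNA levels. The sources used here give no age, sex, construction of the knockout allele or number of animals. Whether the 3 libraries of a group are 3 mice is therefore unknown, and each p-value reflects how much these libraries vary, which may be technical variation.

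Chaperones bind unfolded protein and help it to fold or pass it on for degradation. The HSP70 proteins Hspa1a, Hspa1b and Hspa8 work in cycles with J-domain proteins such as Dnajb1, which deliver clients and trigger ATP hydrolysis, and with exchange factors such as Hsph1 and Bag3, which release the nucleotide. Hsp90aa1 matures kinases and receptors, Hspb1 is a small heat shock protein that holds unfolded clients without ATP, and Hspd1 with its lid Hspe1 forms the folding chamber of mitochondria. Hspa1a and Hspa1b are known as stress-induced and near-silent at rest, and Hspa8 as their constitutive relative, abundant in neurons. Heat, unfolded protein and other stresses release the transcription factor HSF1, which binds heat shock elements (inverted repeats of GAA) in the promoters of these genes.

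The promoters of 8 of the 10 members were found in the RefSeq table of GRCm38.p6. They are shown for the letters of the heat shock element. Whether these letters have a part in how members moved together between libraries was not tested. Each line is the 150 bases before the annotated start, read 5′ to 3′ on the gene's strand, with capitals on the GAA units of each match to GAANNTTC or TTCNNGAA. Both motifs read the same on either strand, and matches that overlap were all counted. The sequenced reads were placed on mm9, an older build, so these coordinates belong to the promoter table alone.
Hspa1a, chr17:34972157-34972306, minus strand: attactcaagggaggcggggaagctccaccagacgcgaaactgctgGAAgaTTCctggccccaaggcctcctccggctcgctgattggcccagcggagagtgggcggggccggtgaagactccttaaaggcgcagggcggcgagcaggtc
Hspa1b, chr17:34959239-34959388, minus strand: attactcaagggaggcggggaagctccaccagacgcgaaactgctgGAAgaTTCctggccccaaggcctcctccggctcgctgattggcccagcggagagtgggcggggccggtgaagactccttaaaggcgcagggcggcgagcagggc
Hspb1, chr5:135887769-135887918, plus strand: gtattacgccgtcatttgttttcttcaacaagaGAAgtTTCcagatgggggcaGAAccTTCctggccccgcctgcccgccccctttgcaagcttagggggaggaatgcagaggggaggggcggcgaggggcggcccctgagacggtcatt
Hsph1, chr5:149636337-149636486, minus strand: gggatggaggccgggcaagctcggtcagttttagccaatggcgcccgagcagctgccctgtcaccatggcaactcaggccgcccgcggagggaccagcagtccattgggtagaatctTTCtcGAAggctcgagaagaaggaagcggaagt
Hspe1, chr1:55087998-55088147, plus strand: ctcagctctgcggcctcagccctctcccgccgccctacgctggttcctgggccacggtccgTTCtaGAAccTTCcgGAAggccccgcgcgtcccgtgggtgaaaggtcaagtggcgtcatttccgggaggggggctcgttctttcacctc
Dnajb1, chr8:83608025-83608174, plus strand: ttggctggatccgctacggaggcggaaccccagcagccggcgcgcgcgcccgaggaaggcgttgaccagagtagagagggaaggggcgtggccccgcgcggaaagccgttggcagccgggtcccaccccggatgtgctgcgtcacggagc
Bag3, chr7:128523433-128523582, plus strand: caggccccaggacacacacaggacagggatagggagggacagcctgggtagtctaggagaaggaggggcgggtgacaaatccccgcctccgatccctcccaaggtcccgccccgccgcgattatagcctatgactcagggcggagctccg

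Hspa1a and Hspa1b each held 1 match, which began 104 bases before the start. Their windows of 250 bases differed at 3 bases (98.8% identity). Hspb1 held 2 matches, at 117 and 97 bases, and the first listed start of Hsph1 held 1, at 33 bases. Hspe1 held 3 overlapping matches at 89, 84 and 79 bases, which included 2 matches to the longer motifs TTCNNGAANNTTC or GAANNTTCNNGAA. Hspd1 and Hspe1 are neighbours on opposite strands of chromosome 1, and the second listed start of Hspd1 held the same 3 matches at 144, 139 and 134 bases. The windows of Dnajb1, Bag3 and the first start of Hspd1 held none, which says only that these letters are not in them. Of 32851 promoter windows of 250 bases, 12.8% held the shorter motif and 0.466% the longer one.

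Gene counts per library ranged from 5175203 to 30459968. 3 libraries held fewer than 8000000: cerebellum KO 1, olfactory bulb KO 2 and olfactory bulb WT 1. Cdr1as had 0 to 13 counts in the KO libraries and 5617 to 130878 in the WT libraries, so the libraries match their labels. Region markers were also highest in the labelled region. Their lowest sum there was 1816 CPM for the cerebellum, 505 for the cortex, 625 for the hippocampus and 343 for the olfactory bulb, against at most 14.4, 196, 317 and 71.2 CPM in a library of another region. CPM is a gene's count per 1000000 counts of the genes kept by the low-count filter, with the library scaling described under processing. Some members share sequence with close copies, so their counts are uncertain where reads could not be placed. Of all stretches of 100 bases in the longest transcript, 56.5% recur in other genes for Hspa1a and 49.9% for Hspa1b, mostly each other, and 47.5% for Hsp90aa1, 42.7% for Hspb1, 32.1% for Hspa8 and 26.9% for Hspd1. The share was 0.347% for Hspe1 and 0 for Hsph1, Dnajb1 and Bag3. Hspa1a also overlaps Gm20481 by 564 exon bases, and Hspd1 overlaps Hspe1 by 112, on the opposite strand, and the sources used here do not say whether the counting used strand. Hspa8 overlaps Snord14c, Snord14d and Snord14e by 86, 86 and 90 exon bases on its own strand, which counting by strand would not separate.

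Hspa8 and Hsp90aa1 were the most abundant members and the stress-induced Hspa1a, Hspa1b and Hspb1, with Bag3, the least. Per kilobase of exon, the mean level in WT cortex was highest for Hspa8 at 347 ± 84.2 CPM per kb (SD, n = 3), followed by Hsp90aa1 at 297 ± 38.4. Hsph1 at 62.5 ± 13.6 and Hspd1 at 61.5 ± 10.7 CPM per kb lay within each other's spread. Hspe1 at 20.1 ± 3.8 and Dnajb1 at 16.3 ± 7.48 CPM per kb came next, also within their spread. The lowest were Hspb1 at 4.86 ± 3.42, Hspa1b at 3.5 ± 3.85, Bag3 at 3 ± 0.479 and Hspa1a at 2.14 ± 1.85 CPM per kb, which overlapped each other. In olfactory bulb KO 2, the shallowest library, Hspa1a rested on 10 counts, so single values of the 4 lowest members carry a large counting error.

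KO against WT, no member passed the threshold of 0.05 on the adjusted p (edgeR quasi-likelihood test, Benjamini-Hochberg over all genes tested) in any region: 0 of 10 in each. Because dissected tissue was measured in bulk, fewer cells of a type and less RNA per cell cannot be told apart in these values. Few genes of any kind passed. The share of all genes called was 0.00644% in the cerebellum, 0.00634% in the cortex, 0.0062% in the hippocampus and 0.0253% in the olfactory bulb. With the replicate number as a block, 30 genes were called in the cortex instead of 1, and again no member. The block is given for the cortex because each same-numbered pair of libraries correlated above 0.1 there. At an unadjusted p under 0.05 stood 1 member in the cerebellum (Bag3), 0 in the cortex, 0 in the hippocampus and 2 in the olfactory bulb (Dnajb1 and Bag3), where 1.89%, 5.64%, 4.01% and 2.43% of all genes did in edgeR. DESeq2 called 1 member, Dnajb1 in the olfactory bulb. Member log2 fold changes, KO over WT, had a median of 0.06 in the cerebellum, -0.04 in the cortex, -0.07 in the hippocampus and 0.22 in the olfactory bulb, beside -0.04, 0.00, -0.02 and -0.01 over all genes.

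Dnajb1, the J-domain partner of stress-induced HSP70, had the smallest p of the members. In the olfactory bulb it stood at 40.9, 54.9 and 54.8 CPM in KO 1, 2 and 3, against 19.4, 24.6 and 27.3 CPM in WT 1, 2 and 3. The lowest KO library lay above the highest WT library. Its mean was 50.2 ± 8.07 CPM in KO and 23.7 ± 4.01 CPM in WT (SD, n = 3 each), a log2 fold change of 1.07 (SE 0.19), with unadjusted p = 0.000248 and adjusted p = 0.357 in edgeR. Over the alternatives the adjusted p ran from 0.000475 to 1: it passed in DESeq2 (0.000475) and in edgeR with no low-count filter (0.000675) and in no other, and the fold change stayed between 0.89 and 1.20. In the cerebellum Dnajb1 stood at 19.4, 32.7 and 53.3 CPM in KO, against 31.6, 20.7 and 25.4 CPM in WT, and in the cortex at 61.4, 53.2 and 84.1 CPM in KO, against 72.6, 28.1 and 47.6 CPM in WT. In the hippocampus the values were 38.7, 38.0 and 60.0 CPM in KO, against 53.7, 25.4 and 34.4 CPM in WT. The groups overlapped in these 3 regions, with log2 fold changes of 0.45 (SE 0.34), 0.41 (SE 0.32) and 0.26 (SE 0.28).

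Bag3, the exchange factor that links HSP70 to selective autophagy, stood at 16.9, 16.4 and 13.7 CPM in KO olfactory bulb, against 7.86, 11.7 and 11 CPM in WT olfactory bulb. Its groups did not overlap there (log2 fold change 0.61, SE 0.25, adjusted p = 0.992, edgeR). In the cerebellum it stood at 37.6, 20.5 and 25.8 CPM in KO, against 21.8, 14.8 and 17.2 CPM in WT, which overlapped (0.63, SE 0.25, adjusted p = 0.949). In the cortex it stood at 10.7, 7.02 and 8.44 CPM in KO, against 8.55, 6.51 and 6.82 CPM in WT. In the hippocampus the values were 10.7, 9.38 and 10.2 CPM in KO, against 10.9, 11.2 and 10.4 CPM in WT. Dnajb1 and Bag3 were the 2 members whose olfactory bulb groups did not overlap with KO higher, where 5.44% of all genes did so. Olfactory bulb KO 2, with 5175203 gene counts, gave 288 and 86 counts for these genes. Markers of other tissues were uneven between libraries 1, 2 and 3 of the olfactory bulb. Hypothalamus and pituitary markers summed to 0.941, 2.67 and 552 CPM in KO, against 7.45, 0.882 and 1.26 CPM in WT. Meninges and fibroblast markers summed to 181, 563 and 143 CPM in KO, against 106, 141 and 362 CPM in WT. The part of these markers in the Dnajb1 and Bag3 values was not tested.

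Immediate early genes, which neurons switch on after stimulation or handling, summed to more in every KO library than in any WT library of the same region. Their summed level (Fos, Egr1, Arc, Junb, Nr4a1, Npas4) in the olfactory bulb was 860 to 1281 CPM in KO, against 217 to 657 CPM in WT, and all 6 had a log2 fold change above 0. In the cerebellum the sum was 146 to 224 CPM in KO, against 97.1 to 112 CPM in WT, with 5 of 6 above 0. In the cortex it was 1228 to 1671 CPM in KO, against 450 to 608 CPM in WT, and in the hippocampus 507 to 918 CPM in KO, against 279 to 376 CPM in WT, with 6 of 6 above 0 in both. None of these genes was at 0 in all libraries of a region, and their part in the Dnajb1 and Bag3 values was not tested. The sums themselves were not tested either, and the 6 genes were chosen with earlier results of these data known. Among single genes, all KO libraries lay above all WT libraries for 709 of 15536 in the cerebellum and 1038 of 15777 in the cortex. In the hippocampus this held for 843 of 16119 and in the olfactory bulb for 861 of 15831.

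**Figure D1:**
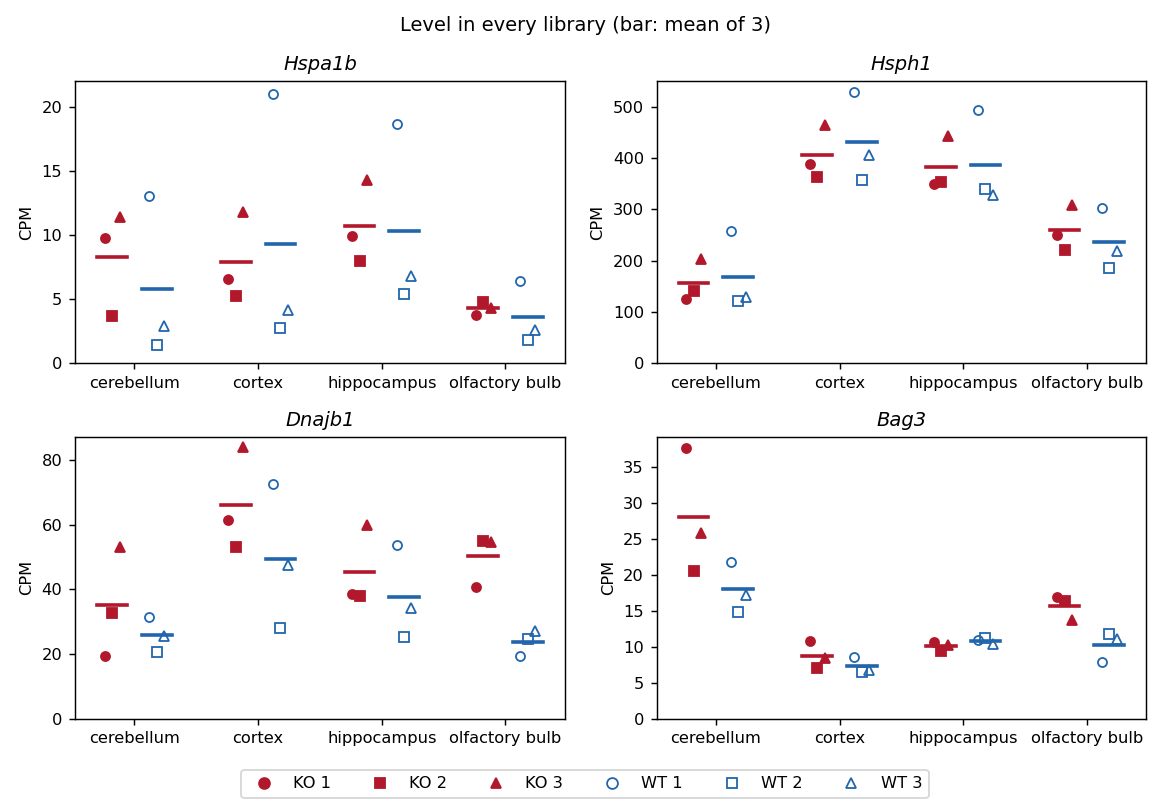
CPM (counts per 1000000) of Hspa1b, Hsph1, Dnajb1 and Bag3 in each of the 24 libraries, by region, with KO filled and WT open and a bar at each mean of 3. WT 1 is the top WT library of Hspa1b and Hsph1 in every region (21.0 CPM for Hspa1b in the cortex), and in the olfactory bulb the KO libraries of Dnajb1 (40.9 to 54.9 CPM) and Bag3 (13.7 to 16.9 CPM) lie above all WT libraries.

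The stress-induced genes differed more between libraries of 1 group than between genotypes. Hspa1b in the cortex stood at 6.59, 5.22 and 11.8 CPM in KO 1, 2 and 3, against 21.0, 2.70 and 4.14 CPM in WT 1, 2 and 3. In the cerebellum it stood at 9.78, 3.66 and 11.4 CPM in KO, against 13.0, 1.40 and 2.91 CPM in WT. In the hippocampus the values were 9.94, 7.93 and 14.3 CPM in KO, against 18.6, 5.39 and 6.79 CPM in WT. In every one of these regions WT 1 was the highest of all 6 libraries and WT 2 the lowest, so the KO libraries lay inside the WT range. In the olfactory bulb the values were 3.76, 4.77 and 4.32 CPM in KO, against 6.37, 1.76 and 2.61 CPM in WT, with the same order in WT. WT 1 was 6.03, 6.14, 3.06 and 2.91 times the mean of WT 2 and WT 3 in cerebellum, cortex, hippocampus and olfactory bulb.

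Hspa1a, the near-identical neighbour of Hspa1b, stood at 7.59, 5.26 and 11.8 CPM in KO 1, 2 and 3 of the cortex, against 11.9, 2.20 and 3.92 CPM in WT 1, 2 and 3. In the cerebellum it stood at 2.11, 4.36 and 9.79 CPM in KO, against 9.29, 2.49 and 3.90 CPM in WT. In the hippocampus the values were 7.38, 6.34 and 14.2 CPM in KO, against 11.1, 4.63 and 5.99 CPM in WT. WT 1 was the highest WT library and KO 3 the highest KO library in each, and the groups overlapped. In the olfactory bulb the values were 5.64, 1.91 and 6.57 CPM in KO, against 4.2, 2.88 and 3.62 CPM in WT, with the same libraries on top. Over the regions its log2 fold change lay between 0.06 and 0.43.

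Hspb1, the small heat shock protein, had WT 1 as its highest library in every region. It stood at 3.85, 3.17 and 4.97 CPM in KO hippocampus, against 14.2, 2.98 and 4.76 CPM in WT hippocampus. Its hippocampal log2 fold change of -0.90 (SE 0.52) was the lowest of all member values and became 0.03 (SE 0.27) without WT 1. Choroid plexus markers were also uneven in that region. Their summed level was 32.4 to 37.5 CPM in KO, against 2248, 32.7 and 1797 CPM in WT 1, 2 and 3. None of the 5 was above 0 in log2 fold change, and none was at 0 CPM in all libraries. Hspb1 in the same WT libraries stood at 14.2, 2.98 and 4.76 CPM, as given above. The part of these markers in the Hspb1 value was not tested. In the cerebellum Hspb1 stood at 2.41, 4.19 and 6.60 CPM in KO, against 11.7, 2.42 and 4.46 CPM in WT. In the cortex the values were 4.29, 3.03 and 7.20 CPM in KO, against 8.49, 2.20 and 3.52 CPM in WT, and in the olfactory bulb 4.54, 4.39 and 4.67 CPM in KO, against 6.91, 3.30 and 4.21 CPM in WT. The KO libraries lay between the WT 1 and WT 2 values in the cortex and the olfactory bulb, and the groups overlapped in each region.

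Hsph1, the HSP110 exchange factor, was abundant and ordered in the same way. In the cerebellum it stood at 126, 141 and 203 CPM in KO, against 258, 120 and 129 CPM in WT. In the cortex the values were 389, 364 and 465 CPM in KO, against 530, 357 and 406 CPM in WT. In the hippocampus they were 349, 354 and 443 CPM in KO, against 494, 340 and 328 CPM in WT, and in the olfactory bulb 250, 221 and 309 CPM in KO, against 303, 185 and 219 CPM in WT. KO 3 was the highest KO library and WT 1 the highest WT library in each region, and the groups overlapped in each.

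Hspa8, Hsp90aa1 and the mitochondrial members Hspd1 and Hspe1 had log2 fold changes between -0.32 and 0.23, and their groups overlapped in every region. Hspa8, the constitutive HSP70, stood at 1622, 1160 and 1571 CPM in KO cortex, against 1738, 1085 and 1419 CPM in WT cortex (log2 fold change 0.04, SE 0.20). In the cerebellum it stood at 1245, 925 and 1242 CPM in KO, against 1236, 801 and 868 CPM in WT, and in the olfactory bulb at 1359, 950 and 1160 CPM in KO, against 1280, 748 and 957 CPM in WT. The hippocampal values were 1311, 1074 and 1313 CPM in KO, against 1570, 1155 and 1070 CPM in WT. Its log2 fold change lay between -0.04 and 0.23 over the regions, with KO 2 and WT 2 the lowest of their groups in 3 of them.

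Hsp90aa1, the stress-responsive HSP90, stood at 987, 780 and 980 CPM in KO cortex, against 1219, 1178 and 935 CPM in WT cortex (-0.28, SE 0.15, adjusted p = 0.858, edgeR). In the olfactory bulb its values were 953, 691 and 744 CPM in KO, against 842, 654 and 652 CPM in WT (0.15, SE 0.14). In the cerebellum they were 449, 619 and 741 CPM in KO, against 985, 679 and 589 CPM in WT (-0.32, SE 0.23), and in the hippocampus 754, 730 and 833 CPM in KO, against 1053, 891 and 733 CPM in WT (-0.21, SE 0.13). The value was below 0 in 3 regions, each time with WT 1 as the highest library. Hspd1, the mitochondrial chaperonin, stood at 131, 117 and 138 CPM in KO cortex, against 184, 145 and 134 CPM in WT cortex (-0.26, SE 0.14). Hspe1, its lid, stood at 26.8, 23.8 and 26.8 CPM in KO cortex, against 34.1, 26.2 and 24.2 CPM in WT cortex (-0.13, SE 0.16). Over the regions the log2 fold change lay between -0.26 and 0.21 for Hspd1 and between -0.19 and 0.06 for Hspe1. In the hippocampus Hspe1 stood at 30.0, 27.0 and 31.8 CPM in KO, against 50.1, 25.9 and 25.2 CPM in WT, again with WT 1 on top. None of the 4 reached an adjusted p under 0.05 in any region.

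Averaged over the 4 regions, 0 of 10 members were called (limma on mean log2 CPM), with 0.0114% of all genes called. With the replicate block 15 genes were called in place of 2, none of them a member. Dnajb1 (log2 fold change 0.56, SE 0.21) and Bag3 (0.35, SE 0.15) were the members with an unadjusted p under 0.05 in limma, and each had an adjusted p of 0.908. edgeR on all 24 libraries also called 0 members. The other 8 lay between -0.18 for Hspb1 and 0.47 for Hspa1b. The test of whether the KO effect differs between regions called 0 of 10 members, with 0.00568% of all genes called, and every member had an adjusted p of 1 in edgeR. No member had an unadjusted p under 0.05 in it.

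The direction of many of these values changed with the libraries used. WT 1 was the highest WT library for most members, and KO 3 the highest KO library for many. Leaving out WT 1 thus raised such values by construction, and leaving out KO 3 lowered them, so these shifts are a description. Without WT 1 the members' median log2 fold change, KO over WT, was 0.41 in the cerebellum, 0.32 in the cortex, 0.17 in the hippocampus and 0.40 in the olfactory bulb, and 8, 8, 8 and 10 of 10 members were above 0 there, compared with 6, 5, 3 and 8 with all libraries. The median over all genes stayed between -0.04 and 0.00. Hspa1b in the cortex, at -0.26 (SE 0.69) with all libraries, was at 1.16 (SE 0.39) without WT 1, and in the cerebellum it was at 0.49 (SE 0.79) and 1.93 (SE 0.65). Without WT 2, its lowest WT library, Hspa1b in the cortex was at -0.67. Without KO 3 the medians were -0.13, -0.17, -0.15 and 0.20, and Dnajb1 was at 0.03 in the cerebellum and 0.02 in the hippocampus. No member was called with either library left out, and the lowest adjusted p of a member in a region was then 0.817 in edgeR.

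**Figure D2:**
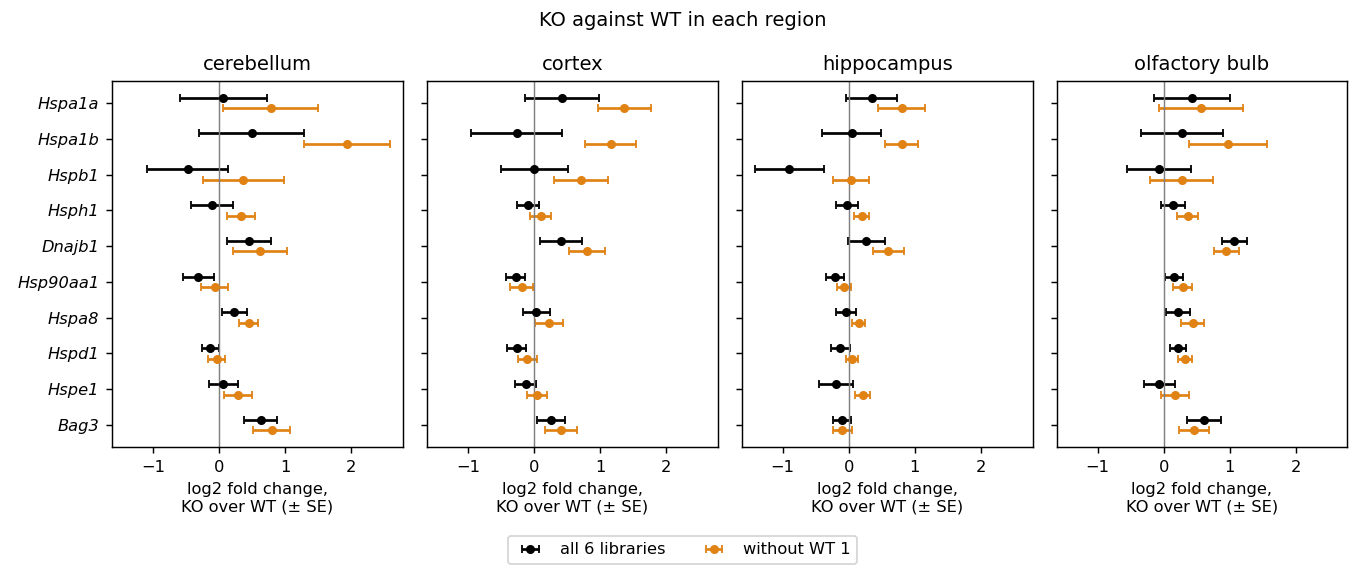
log2 fold change, KO over WT, with its SE for 10 members in each region, from all 6 libraries (black) and without WT 1 (orange). Orange points lie to the right of black ones for most members, as for Hspa1b in the cortex (1.16 and -0.26), and Dnajb1 in the olfactory bulb stands clear of 0 in both (0.95 and 1.07).

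The same libraries were high for most members. WT 1 was the highest of the 3 WT libraries in 37 of 40 pairs of member and region (92.5%), compared with 36.1% of such pairs over all 17600 genes tested. The exceptions were Bag3 in the hippocampus and Dnajb1 and Bag3 in the olfactory bulb. In all 4 regions WT 1 was highest for 8 of 10 members, all but Dnajb1 and Bag3, where 5.59% of all genes had WT 1 highest in all 4. WT 2 was the lowest WT library in 25 of the 40 pairs (62.5%, compared with 32.1% over all genes). Among KO libraries, KO 3 was highest in 26 of 40 pairs (65%, compared with 30.4% over all genes), and in cerebellum, cortex and hippocampus together it was highest for 6 members: Hspa1a, Hspa1b, Hspb1, Hsph1, Dnajb1 and Hspd1. Of all genes, 6.22% had KO 3 highest in those 3 regions. Bag3 instead was highest in KO 1 in all 4 regions. Whether libraries that share a number share an animal is not stated.

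**Figure D3:**
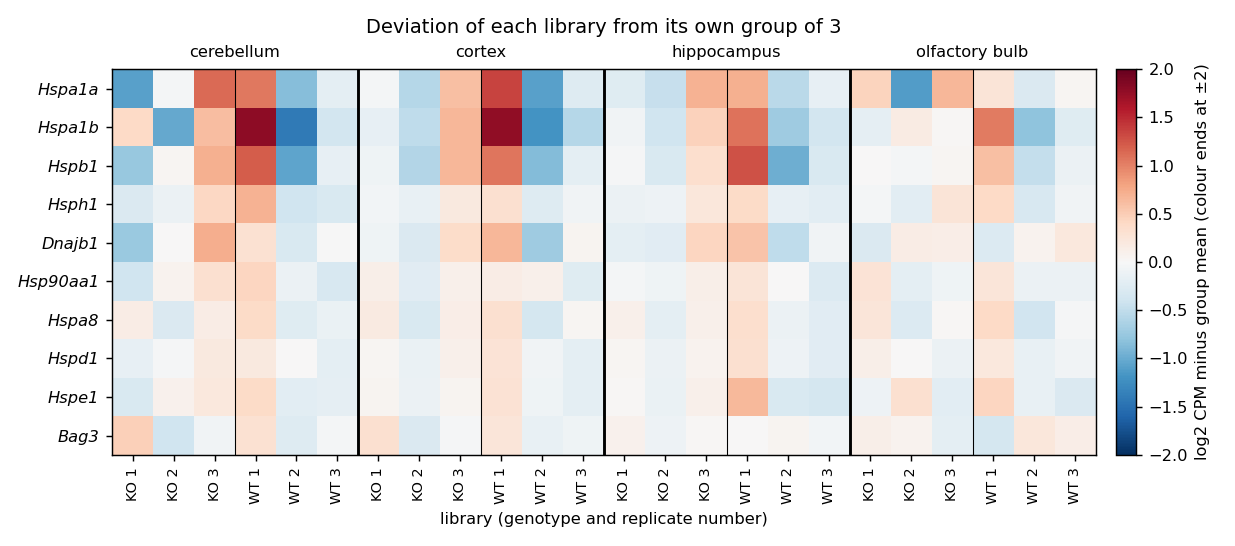
Deviation of log2 CPM from the mean of each group of 3 libraries, for 10 members (rows) and 24 libraries (columns, KO left of WT within each region), with red for higher and blue for lower. The WT 1 columns are red for most members in cerebellum, cortex and hippocampus, and Bag3 in the bottom row departs from the rows above it.

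WT 1 also had fewer unassigned reads in 3 regions. Reads assigned to no feature made up 53.7%, 20.3% and 37.0% of the total in WT 1 of cerebellum, cortex and hippocampus, the lowest share of the WT libraries there (60.2% and 56.8%, 56.2% and 34.9%, 51.3% and 52.6% in WT 2 and WT 3). In the olfactory bulb, where WT 1 was again highest for 8 members, its share was 59.5%, between 62.9% in WT 2 and 58.7% in WT 3. In KO 3 the share was 55.8%, 33.6% and 48.3% in cerebellum, cortex and hippocampus, the lowest KO library in the first and the last. The part of this share in the pattern was not tested. With this share as a covariate, several KO over WT values changed sign (given with the alternatives) and no member was called. Reads not aligned uniquely made up 12.3%, 18.7% and 21.4% in WT 1 of cerebellum, cortex and hippocampus. In WT 2 and WT 3 there they made up 9.08% and 11.8%, 10.8% and 16.5%, and 11.8% and 11.4%. In the olfactory bulb WT 1 was at 9.99%, between 8.85% in WT 2 and 11.1% in WT 3. The part of these reads in the pattern was not tested.

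The deviations also correlated between members. Over the 24 libraries, with each library's log2 CPM taken as a deviation from its own group of 3, the 36 pairs among the 9 members other than Bag3 had a median Pearson r of 0.725, from 0.421 for Dnajb1 with Hspa8 to 0.894 for Hspb1 with Hsph1. The 9 pairs with Bag3 had a median of 0.141, from 0.044 to 0.413. These values share libraries, depth and scaling and are a description. Without the 4 WT 1 libraries the medians were 0.509 for the 36 pairs and -0.069 for the pairs with Bag3 over 20 libraries. The 36 pairs then ran from -0.0985 to 0.925 and the pairs with Bag3 from -0.227 to 0.615. Hsph1 and Dnajb1 varied more than most genes of their level: the pooled SD of Hsph1 within groups was 0.35 on the log2 scale, compared with a median of 0.15 over 624 genes within a range of 0.5 of its level. For Dnajb1 it was 0.48 compared with 0.215, and for Bag3 0.27 compared with 0.32.

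The 8 genes outside the members whose deviations were most like the members' mean over the 24 libraries were Xbp1 (r = 0.952), Gabarapl1 (0.919), Hyou1 (0.917), Selenok (0.916), Hspa5 (0.916), Pdia4 (0.915), Bdnf (0.912) and Prkar1a (0.911), out of 13198 genes with a median r of 0.114. Without the WT 1 libraries their r ran from 0.725 for Hspa5 to 0.889 for Selenok. For Hspa1b alone the 5 most alike were Sel1l (0.952), Pdia6 (0.941), Pdia3 (0.907), Xbp1 (0.905) and Hspa5 (0.90), where the median gene was at 0.012. Hspa5, the HSP70 of the endoplasmic reticulum, stood at 338, 255 and 405 CPM in KO 1, 2 and 3 of the cortex, against 658, 229 and 335 CPM in WT 1, 2 and 3. Xbp1, a transcription factor of the unfolded protein response, stood at 66.8, 51.2 and 70.2 CPM in KO hippocampus, against 141, 49.3 and 59.4 CPM in WT hippocampus. Both had WT 1 at the top there, as most members did.

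In WT brain the levels of 6 of 10 members differed between regions (edgeR F-test over 12 WT libraries, adjusted p under 0.05), where 59.3% of all genes did, so the count was close to the background. The adjusted p was 0.000803 for Bag3, 0.00159 for Hsph1, 0.00804 for Hsp90aa1, 0.0138 for Dnajb1, 0.0251 for Hspd1 and 0.0422 for Hspa8. Hspa1a, Hspa1b, Hspb1 and Hspe1 missed it, at 0.338, 0.382, 0.70 and 0.117. Hspa8 lost its call without 8 of the 12 libraries in turn (its adjusted p then reached 0.128): cerebellum WT 2 or 3, cortex WT 1 or 3, hippocampus WT 1 or 2, and olfactory bulb WT 2 or 3, and Hspd1 without cortex WT 1, olfactory bulb WT 2 or olfactory bulb WT 3 (up to 0.0881). With no low-count filter Dnajb1 (adjusted p = 0.0875) and Hspa8 (0.13) missed the threshold in edgeR, and with a stricter filter Hspa8 did (0.0556). In the 12 KO libraries, tested the same way, Bag3 (adjusted p = 0.000336), Hsph1 (4.58e-05) and Hsp90aa1 (0.023) passed in edgeR and the other members did not.

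Some of these calls changed with the replicate number as a block. Same-numbered WT libraries deviated together, with a correlation above 0.1 at each number, between cerebellum and cortex (0.361, 0.317 and 0.298) and between cortex and olfactory bulb (0.128, 0.188 and 0.14), and not at each number in the other 4 pairs of regions. With the number as a block the test over 4 regions called 8 of 10 members, where 64.7% of all genes were called. Hspa1b (adjusted p = 0.00123) and Hspe1 (0.00172) passed then in edgeR, and Hspa1a (0.0654) and Hspb1 (0.261) did not.

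Bag3 was the member that was highest in the cerebellum beyond its spread. Its WT levels were 21.6, 14.6 and 17.0 CPM in the cerebellum, 9.06, 6.70 and 7.29 CPM in the cortex, 10.9, 11.6 and 10.52 CPM in the hippocampus and 7.25, 10.9 and 10.4 CPM in the olfactory bulb. No other region reached the lowest cerebellar library. The log2 difference was 1.21 (SE 0.21, adjusted p = 0.000268) over the cortex, 0.69 (SE 0.20, adjusted p = 0.0125) over the hippocampus and 0.89 (SE 0.20, adjusted p = 0.00322) over the olfactory bulb, in edgeR. Hippocampus, olfactory bulb and cortex, in that order, did not differ beyond their spread from their neighbours. The call over the hippocampus was lost without cerebellum WT 1.

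Hsph1 was lowest where Bag3 was highest. Its WT levels were 562, 368 and 434 CPM in the cortex, 495, 351 and 333 CPM in the hippocampus, 280, 173 and 207 CPM in the olfactory bulb and 256, 118 and 128 CPM in the cerebellum. All cerebellar libraries lay below all cortical and hippocampal ones. The cerebellum over the cortex was at -1.44 (SE 0.28, adjusted p = 0.000937) and over the hippocampus at -1.23 (SE 0.28, adjusted p = 0.00308). Without the replicate block, cortex and hippocampus did not differ beyond their spread (0.21, SE 0.28, adjusted p = 0.737), nor did cerebellum and olfactory bulb (-0.39, SE 0.28). With the block, edgeR called the cerebellum over the olfactory bulb (-0.45, SE 0.13, adjusted p = 0.0128). The KO libraries without the block also gave this call (-0.67, SE 0.18, adjusted p = 0.0115, edgeR). In the KO libraries the cerebellum over the cortex was at -1.48 (SE 0.18) for Hsph1 and 1.56 (SE 0.25) for Bag3.

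**Figure D4:**
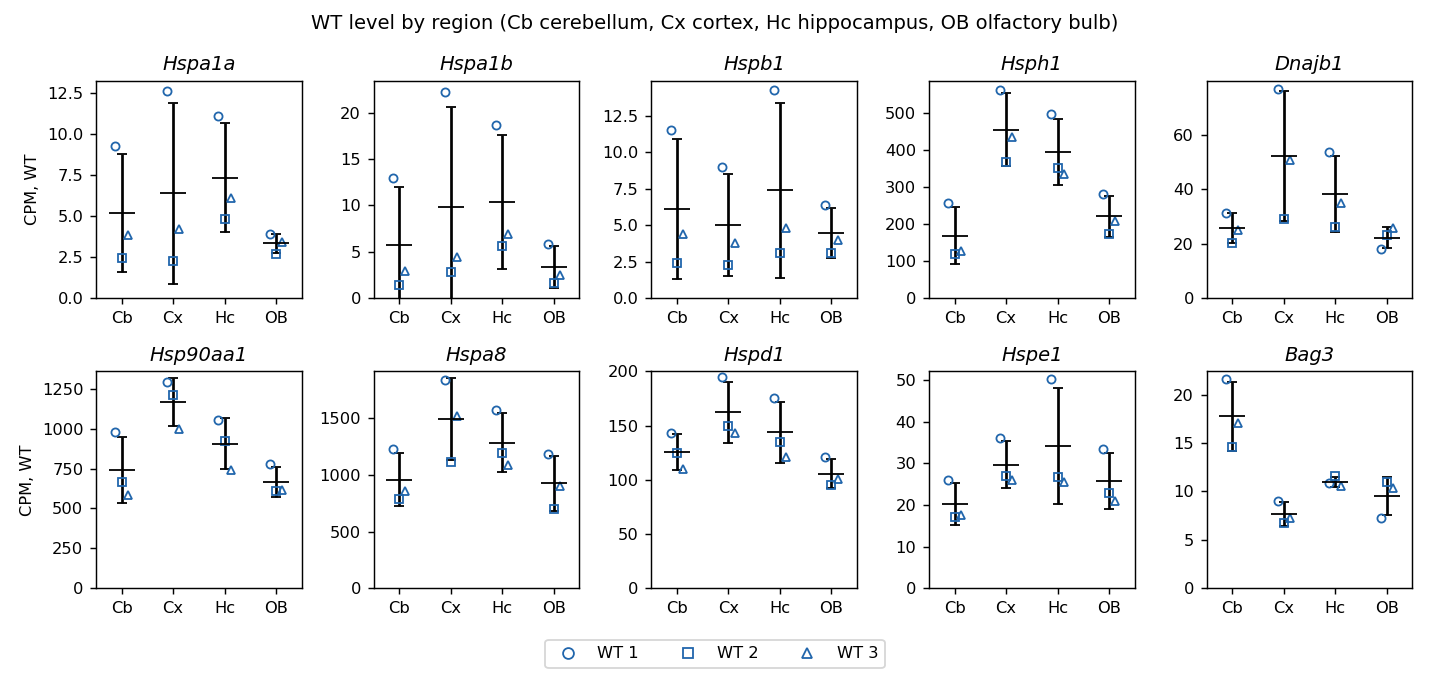
WT level in CPM of 10 members in 4 regions, with each of the 3 libraries as a symbol and the mean ± SD as a bar, cut at 0 where the SD exceeds the mean. Bag3 is highest in the cerebellum (17.7 CPM), Hsph1 lowest there (167 CPM), and the circles of WT 1 lie at the top of most groups.

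The cortex held the most RNA of 4 further members. Dnajb1 had WT means of 52.2 ± 24 CPM in the cortex, 38.3 ± 14.1 in the hippocampus, 25.6 ± 5.51 in the cerebellum and 22.2 ± 3.97 in the olfactory bulb (SD, n = 3 each). Hsp90aa1 followed the same order, at 1168 ± 151, 906 ± 157, 742 ± 207 and 668 ± 94.6 CPM, as did Hspa8 at 1491 ± 362, 1284 ± 257, 958 ± 235 and 927 ± 241 CPM and Hspd1 at 163 ± 28.2, 144 ± 28.1, 126 ± 16.7 and 106 ± 13.5 CPM. For each of the 4, neighbours in this order did not differ beyond their spread without the replicate block. With the block, edgeR called Hsp90aa1 in cortex over hippocampus (0.37, adjusted p = 0.0327) and cerebellum over hippocampus (-0.30, adjusted p = 0.0297). It also called Hspa8 in cerebellum over hippocampus (-0.44, adjusted p = 0.00486) and Hspd1 in cerebellum over olfactory bulb (0.25, adjusted p = 0.042). No neighbours were called for Dnajb1. Without the block, the cortex over the olfactory bulb was called for each: Dnajb1 at 1.23 (SE 0.32), Hsp90aa1 at 0.81 (SE 0.19), Hspa8 at 0.69 (SE 0.23) and Hspd1 at 0.62 (SE 0.17), with adjusted p between 0.00399 and 0.0293 in edgeR. In the KO libraries the same contrast was not called for Dnajb1 (0.57, SE 0.30, adjusted p = 0.185), Hsp90aa1 (0.37, SE 0.17, adjusted p = 0.129) and Hspd1 (0.14, SE 0.11, adjusted p = 0.394), and was called for Hspa8 (0.49, SE 0.17, adjusted p = 0.0399), in edgeR.

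The cerebellum differed from the cortex for 5 of 10 members (Hsph1, Bag3, Dnajb1, Hsp90aa1 and Hspa8), where 46.7% of all genes did, and from the hippocampus for 3 (Hsph1, Bag3 and Hspe1), where 42.1% did. From the olfactory bulb it differed for Bag3 alone, where 36.6% of all genes did. The cortex differed from the olfactory bulb for 5 members (Dnajb1, Hsp90aa1, Hspa8, Hspd1 and Hsph1), where 38.3% did, and the hippocampus from the olfactory bulb for Hsph1 alone, where 33.8% did. The cortex and hippocampus differed for none of the 10, where 9.77% of all genes differed, and 1 member had an unadjusted p under 0.05 (edgeR). With the replicate block the cerebellum differed from the cortex for 8 members, where 51.3% of all genes did. Hspa1b (-0.77, SE 0.28, adjusted p = 0.0388), Hspd1 (-0.36, SE 0.091, adjusted p = 0.00513) and Hspe1 (-0.56, SE 0.13, adjusted p = 0.00276) were the ones added in edgeR. The cortex then differed from the olfactory bulb for 6, where 42.9% of all genes did, with Hspa1b added (1.23, SE 0.30, adjusted p = 0.00558, edgeR). Without the block, none of the 15 calls was of Hspa1a, Hspa1b or Hspb1, and 1 was of Hspe1 (-0.75, SE 0.27, adjusted p = 0.038, edgeR), in the cerebellum against the hippocampus. Several calls rested on single libraries. That of Hspe1 was lost without cerebellum WT 2, cerebellum WT 3, cortex WT 3 or hippocampus WT 1. Of the cerebellum against the cortex, Dnajb1 was lost without cerebellum WT 2 or cortex WT 1, Hsp90aa1 without cerebellum WT 2 or WT 3, and Hspa8 without those or cortex WT 1 or WT 3. Of the cortex against the olfactory bulb, Hsph1 was lost without cortex WT 1, and Hspa8 without cortex WT 1 or WT 3 or olfactory bulb WT 2 or WT 3. Hsph1 in the hippocampus against the olfactory bulb was lost without hippocampus WT 1 or olfactory bulb WT 2 or WT 3.

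Without the replicate block Hspa1a, Hspa1b and Hspb1 had no regional order that exceeded their spread, and WT 1 held the top value in each region. Hspa1b had WT means of 10.4 ± 7.21 CPM in the hippocampus, 9.82 ± 10.8 in the cortex, 5.72 ± 6.26 in the cerebellum and 3.33 ± 2.24 in the olfactory bulb, with an SD above the mean in cortex and cerebellum. Hspa1a had means of 7.31 ± 3.33, 6.36 ± 5.50, 5.17 ± 3.57 and 3.33 ± 0.595 CPM in the same order. Hspb1 had means of 7.39 ± 6.01 in the hippocampus, 6.12 ± 4.82 in the cerebellum, 5.01 ± 3.53 in the cortex and 4.47 ± 1.70 CPM in the olfactory bulb.

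Other chaperone genes were read from 8 groups of 58 listed genes, chosen with earlier results of these data known. In KO against WT 0 of the 52 or 53 tested were called in each region or in the mean over regions, by edgeR or limma. At an unadjusted p under 0.05 stood 0 in the cerebellum, 4 in the cortex (Dnajb5, Hsf1, Hspa4 and Hspa4l), 1 in the hippocampus (Dnajb5), 3 in the olfactory bulb (Cct3, Dnaja1 and Hspa9) and 1 in the mean (Dnajb5), where 1.89%, 5.64%, 4.01%, 2.43% and 5.06% of all genes did. These genes were picked for that count after their values were seen. DESeq2 called 1, Dnajb5 in the cortex (adjusted p = 0.00893), and 0 in the other regions. Over its alternatives the adjusted p of Dnajb5 there ran from 0.00893 to 1. The listed genes' median log2 fold change was -0.03 in the cerebellum, -0.02 in the cortex, -0.09 in the hippocampus and 0.06 in the olfactory bulb. The smallest p was that of Dnajb5, a J-domain protein, in the cortex, at 171, 186 and 195 CPM in KO, against 134, 111 and 116 CPM in WT (log2 fold change 0.61, SE 0.12, adjusted p = 0.595, edgeR). All KO libraries lay above all WT libraries for it and for Hsf1, as they did for 1038 of the 15777 genes tested in the cortex. Hsf1, the heat shock factor itself, stood at 30.9, 32.3 and 31 CPM in KO cortex, against 26.0, 21.6 and 28.0 CPM in WT cortex (0.31, SE 0.13, adjusted p = 0.858), with no overlap between the groups. In the hippocampus 8 of 52 genes were above 0, and all 8 genes of the HSP90 group, all 8 of the cytosolic chaperonin TRiC and all 5 mitochondrial chaperones were below 0 without any call, at medians of -0.07, -0.22 and -0.07. The median over all genes there was -0.02, and the share of all genes below 0 was not counted. Stip1, Cct8 and Hspa9, with the smallest p of these groups, each had WT 1 as the highest library. Cct8 stood at 132, 128 and 134 CPM in KO, against 189, 132 and 143 CPM in WT. The part of WT 1 in these directions was not tested. WT 1 was the highest WT library for 73.1% of pairs of these genes and regions, compared with 92.5% for the members and 36.1% for all genes.

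In WT brain 33 of 53 listed chaperone genes differed between regions, compared with 59.3% of all genes. Hspa12a, a distant HSP70, stood at 323 ± 15.6 CPM in the hippocampus, 282 ± 31.7 in the cortex, 147 ± 16.6 in the cerebellum and 55.2 ± 1.79 in the olfactory bulb (SD, n = 3 each, adjusted p = 1.89e-09, edgeR). Hspa2, an HSP70 best known from testis, stood at 59.6 ± 8.54 in the hippocampus and 11.3 ± 1.84 CPM in the cerebellum. Dnajb5 was highest in the olfactory bulb, at 195 ± 15.4 CPM, and lowest in the cerebellum, at 66.3 ± 4.0 CPM. Hsp90ab1, the constitutive partner of Hsp90aa1, stood at 1516 ± 196 in the hippocampus, 1503 ± 231 in the cortex, 986 ± 265 in the cerebellum and 867 ± 125 CPM in the olfactory bulb. Hspb6, a small heat shock protein, was highest in the cerebellum at 6.8 ± 1.30 CPM, as was Bag3 among the members.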

How the data were processed

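The authors deposited 1 table per library of raw counts per Ensembl gene, with no normalization. TRIzol extraction, depletion of ribosomal RNA by RNase H and a TruSeq stranded total RNA kit came before sequencing, per the labels' protocols. The submitters' processing notes name bcl2fastq 2.17.1.14, STAR 2.5.1b, HTSeq 0.6.1p1 and the mm9 build, and the sources used here name no counting options, read length or annotation. The 5 summary rows per table entered neither library sizes nor tests, and reads assigned to no feature were 20.3% to 62.9% of the total. Symbols and exon lengths came from GENCODE M21, which gave a symbol to 32898 of 37621 entries and to 10 of 10 members, 57 of 58 other chaperone genes and 68 of 69 markers.

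Each region's 6 libraries were fitted alone in edgeR 4.0.16 (R 4.3.3) with TMM scaling, filterByExpr at a minimum count of 10 and the robust quasi-likelihood F-test, two-sided, with Benjamini-Hochberg adjustment over all genes tested and a threshold of 0.05. CPM values carry the TMM factors of their own fit, so the WT levels by region (12 WT libraries) differ slightly from those in KO against WT. The mean over regions used limma 3.58.1 on log2 CPM (prior count 2) averaged over regions for each genotype and replicate number. Alternatives included DESeq2 1.42.0 and are listed with their effect in the closing section, and the fitting scripts were tested on simulated data. Same-numbered KO and WT libraries correlated in their deviations from the group means above 0.1 in each pair in the cortex (0.399, 0.532 and 0.104). They also did in the mean over regions (0.189, 0.171 and 0.227). The block on the replicate number is given in both, as for the WT levels of cerebellum against cortex and cortex against olfactory bulb. Cortex KO 3 correlated more with WT 1 (0.288) than with WT 3 (0.104).

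All 10 members are named in every comparison. Of each group of other chaperone genes, up to 4 with the smallest p past the threshold, otherwise the 1 with the smallest p, could be named, and the 8 and 5 genes most like the members were ranked by correlation among genes with a mean log2 CPM of at least 1. The members, lists and markers were chosen with earlier results of these data known.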

Additional observations from a re-analysis of the deposited data

How the results depend on the processing

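The count of members called in KO against WT stayed at 0 under the alternatives, except in the olfactory bulb, where DESeq2 and the fit with no low-count filter called 1, Dnajb1. The count over all genes moved more. DESeq2 called 25, 35, 17 and 15 genes in cerebellum, cortex, hippocampus and olfactory bulb, no low-count filter 3, 7, 5 and 16, and 1 fit of all 24 libraries 4, 6, 2 and 7. With each library's percentage of unassigned reads (in no feature) as a covariate, 56 genes were called in the cortex and 2 in the hippocampus. The replicate block gave 30 genes in the cortex, 6 in the hippocampus and 11 in the olfactory bulb, and 15 in the mean over regions. It changed no call of a member in KO against WT. In cerebellum, hippocampus and olfactory bulb, same-numbered KO and WT libraries did not correlate above 0.1 at each number. Whether they share more than a number there is not known. In the cerebellum every library still correlated best with its own number. The mean over regions called 78 genes in edgeR on all 24 libraries, 174 in the same fit without the 3 libraries under 8000000 counts, and 1 in limma without the olfactory bulb. The difference between regions called 2 without those 3 libraries. Leaving out 1 replicate at a time gave 1 to 3 genes in the cerebellum, 1 to 3 in the cortex, 1 to 47 in the hippocampus (the highest without WT 2), 1 to 8 in the olfactory bulb and 2 to 5 in the mean over regions.

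Some KO over WT values changed sign. With the percentage of unassigned reads as a covariate, Hspb1 was at 0.14 and Hsph1 at 0.15 in the cerebellum, Hspa1b at 0.33 in the cortex (0.16 under the replicate block), and Hsph1 at 0.19, Hspa8 at 0.15, Hspd1 at 0.043, Hspe1 at 0.18 and Stip1, an HSP90 cochaperone, at 0.099 in the hippocampus. Without both libraries under 8000000 counts, Hspb1 was at 0.32 and Hspe1 at 0.0086 in the olfactory bulb. The mean over regions of Hsph1 was -0.015 in edgeR and -0.041 without the olfactory bulb. The cause was not tested. Leaving out 1 replicate at a time also changed signs, and the ranges that follow are over those fits alone. In the cerebellum the ranges were Hspa1a -0.67 to 0.78, Hspb1 -0.89 to 0.37, Hsph1 -0.34 to 0.33 and Hspe1 -0.040 to 0.28. In the cortex the ranges were Hspa1b -0.67 to 1.16, Hspb1 -0.38 to 0.72, Hsph1 -0.21 to 0.10, Hspa8 -0.12 to 0.23, Hspe1 -0.22 to 0.050 and Hspb8 -0.24 to 0.15. In the hippocampus the ranges were Hspa1a -0.090 to 0.80, Hspa1b -0.25 to 0.80, Hspb1 -1.26 to 0.027, Hsph1 -0.14 to 0.19, Hspa8 -0.14 to 0.15, Hspd1 -0.24 to 0.050, Hspe1 -0.37 to 0.21 and Stip1 -0.39 to 0.11. In the olfactory bulb the ranges were Hspa1b -0.072 to 0.97, Hspb1 -0.30 to 0.28, Hsph1 -0.013 to 0.37 and Hspe1 -0.22 to 0.17. In the mean over regions the ranges were Hspa1a -0.048 to 0.75, Hspa1b -0.035 to 1.17, Hspb1 -0.60 to 0.34, Hsph1 -0.14 to 0.24, Hspa8 -0.013 to 0.31, Hspd1 -0.15 to 0.062, Hspe1 -0.17 to 0.18, Cdc37 -0.039 to 0.20 and Hspb8 -0.77 to 0.062. The highest value came from the fit without WT 1 for each of these genes except Cdc37 and Hspb8 in the mean over regions.

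The WT F-test called 3 members in the KO libraries, a repeat added after the data were seen, and 8 under the replicate block, 4 with no low-count filter and 5 with a stricter one. For pairs of regions, the counts of members were as follows. The cerebellum against the cortex gave 3 with no filter and 8 with the replicate block, against the hippocampus 6 with the block, and against the olfactory bulb 4 with the block and 2 in KO libraries. The cortex against the hippocampus gave 1 with the block, and against the olfactory bulb 3 with no filter and 2 in KO libraries. The hippocampus against the olfactory bulb gave 2 with DESeq2 size factors, in 1 fit of 24 libraries and in KO libraries, and 8 with the block. Leaving out 1 library gave 2 to 5, 1 to 2, 3 to 5 and 0 to 3 members for cerebellum against cortex, cerebellum against olfactory bulb, cortex against olfactory bulb and hippocampus against olfactory bulb, and 1135 to 2521 genes in all for cortex against hippocampus. Depth limits Hspa1a, Hspa1b and Hspb1 most, at 10 to 25 counts in the shallowest library.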
